A study of Mus musculus with 64 samples.

Results

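The BXD strains were split by how strongly their colon RNA read H2-K1, a classical class I gene of the mouse major histocompatibility complex (MHC) on chromosome 17. A strain was called high when both of its arrays, under chow diet (CD) and under high-fat diet (HFD), lay over a log2 intensity of 16.82, and low when both lay under it. Of 30 BXD strains, 16 were high (32 arrays) and 13 were low (26 arrays), so 58 of the 64 arrays of the series entered. The groups were thus chosen by measured H2-K1. BXD89 met neither condition, and the founders DBA/2J and C57BL/6J (4 arrays) stayed out. The high strains were BXD8, BXD39, BXD43, BXD45, BXD48, BXD48a, BXD49, BXD51, BXD55, BXD64, BXD66, BXD67, BXD75, BXD81, BXD84 and BXD90. The low strains were BXD1, BXD6, BXD11, BXD12, BXD27, BXD32, BXD34, BXD40, BXD62, BXD69, BXD73, BXD79 and BXD87.

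All strains are inbred lines derived from crosses of C57BL/6J with DBA/2J, none carries a transgene, and the mice were male. They ate CD (18% of energy as fat) or HFD (60.3%) from 8 weeks of age, and the proximal colon was taken at 29 weeks, 4 h after refeeding. Each of the arrays holds RNA of about 5 mice pooled per strain and diet, so the spread given below is that between strains and the spread between mice was not measured. The genotype of each strain at the MHC is not part of the labels used here, so the groups are named by their H2-K1 level and not by haplotype.

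H2-K1 is the heavy chain of the molecule that shows peptides from inside the cell to CD8+ T cells, and it reaches the surface together with B2m after peptides have been loaded with the help of the Tap transporters. The MHC also holds class II genes, which present extracellular peptides to CD4+ T cells, a class III stretch with complement and Ly6-type genes, and a cluster of butyrophilin-like genes that are known in mouse gut epithelium for keeping intraepithelial γδ T cells. C57BL/6J is known to carry the MHC haplotype b and DBA/2J the haplotype d. In recombinant inbred strains, neighboring genes mostly come from the same parent, and a strain with a crossover inside the region carries a piece of each.

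The promoters below show which letters H2-D1, H2-Aa, H2-Eb1, Btnl6 and Ly6g6c share with H2-K1. They are reference sequences of RefSeq (build GRCm38.p6, the C57BL/6J assembly), the 300 bases around each start, read 5′ to 3′ along the gene, and the sequence of the DBA/2J allele was not analysed here. Capitals mark matches, on either strand, to the κB site GGGGATTCC, the interferon response element core AGTTTCAC, the Y box CTGATTGG, the cAMP response element TGACGTCA and the TATA box TATAAA. H2-K1 has 2 windows in the table and the first is shown. H2-D1 is the other classical class I gene, H2-Aa and H2-Eb1 are class II chains, and Btnl6 and Ly6g6c had the largest differences between the groups.
H2-K1, chr17:34000298-34000597, minus strand: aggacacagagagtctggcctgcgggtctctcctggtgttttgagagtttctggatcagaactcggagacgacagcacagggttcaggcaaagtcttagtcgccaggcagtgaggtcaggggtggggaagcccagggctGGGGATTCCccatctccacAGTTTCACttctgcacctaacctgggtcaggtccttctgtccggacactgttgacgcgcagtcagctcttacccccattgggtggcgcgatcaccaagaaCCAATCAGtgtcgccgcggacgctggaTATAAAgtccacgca
H2-D1, chr17:35262844-35263143, plus strand: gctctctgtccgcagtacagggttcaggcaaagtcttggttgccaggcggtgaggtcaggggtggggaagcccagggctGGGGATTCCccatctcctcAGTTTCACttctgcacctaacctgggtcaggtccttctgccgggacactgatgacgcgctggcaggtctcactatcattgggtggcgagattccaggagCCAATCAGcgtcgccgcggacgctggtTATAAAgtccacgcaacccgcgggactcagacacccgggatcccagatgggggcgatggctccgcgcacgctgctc
H2-Aa, chr17:34287774-34288073, minus strand: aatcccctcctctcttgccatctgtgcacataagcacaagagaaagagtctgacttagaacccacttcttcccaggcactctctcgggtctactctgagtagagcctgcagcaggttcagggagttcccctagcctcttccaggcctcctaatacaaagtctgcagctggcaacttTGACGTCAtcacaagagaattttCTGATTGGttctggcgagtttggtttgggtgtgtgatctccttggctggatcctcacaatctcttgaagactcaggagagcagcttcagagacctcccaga
H2-Eb1, chr17:34305617-34305916, plus strand: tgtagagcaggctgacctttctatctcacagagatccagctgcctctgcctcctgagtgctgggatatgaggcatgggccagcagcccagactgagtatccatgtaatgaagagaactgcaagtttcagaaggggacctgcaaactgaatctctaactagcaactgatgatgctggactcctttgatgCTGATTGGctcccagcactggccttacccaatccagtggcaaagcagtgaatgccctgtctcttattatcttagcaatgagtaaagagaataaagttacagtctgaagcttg
Btnl6, chr17:34517303-34517602, minus strand: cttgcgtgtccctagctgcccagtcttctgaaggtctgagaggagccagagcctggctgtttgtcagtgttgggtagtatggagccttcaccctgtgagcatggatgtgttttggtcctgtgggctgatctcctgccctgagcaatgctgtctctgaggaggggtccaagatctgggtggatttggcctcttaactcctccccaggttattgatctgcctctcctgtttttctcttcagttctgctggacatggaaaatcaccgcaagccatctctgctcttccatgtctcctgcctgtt
Ly6g6c, chr17:35067075-35067374, plus strand: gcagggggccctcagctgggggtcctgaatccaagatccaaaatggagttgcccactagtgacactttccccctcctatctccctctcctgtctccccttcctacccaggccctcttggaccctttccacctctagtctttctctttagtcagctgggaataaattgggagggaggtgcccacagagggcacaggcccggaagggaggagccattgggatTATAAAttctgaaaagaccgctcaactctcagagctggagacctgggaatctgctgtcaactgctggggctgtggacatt
H2-K1 and H2-D1 matched the same 4 motifs in the same order, the κB site, the interferon core, the Y box and the TATA box. H2-Aa and H2-Eb1 shared the Y box with them, and H2-Aa also held the cAMP response element. Ly6g6c matched the TATA box, and Btnl6 matched none of the 5 motifs. Of 32851 promoter windows of this length, 0.25% held the κB site, 0.761% the interferon core, 4.1% the Y box, 1.79% the cAMP response element and 13.6% the TATA box. The motifs do not overlap in these windows. These matches describe letters and not binding.

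H2-K1 (Entrez 14972) was read by 1 probeset, and its level chose the groups, so what follows on it is a description. In the high strains it ran from 17.46 to 18.39 under CD (median 17.80) and from 17.23 to 18.35 under HFD (median 17.54). In the low strains it ran from 14.66 to 16.40 under CD (median 15.47) and from 14.40 to 16.29 under HFD (median 15.05). On strain means the high group averaged 17.73 ± 0.231 (SD, n = 16) and the low group 15.32 ± 0.392 (SD, n = 13), a gap of 2.40 on the log2 scale. Nearest the threshold were BXD81 under HFD (17.23) on the high side, and BXD79 under CD (16.40) and BXD73 under HFD (16.29) on the low side.

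**Figure D1:**
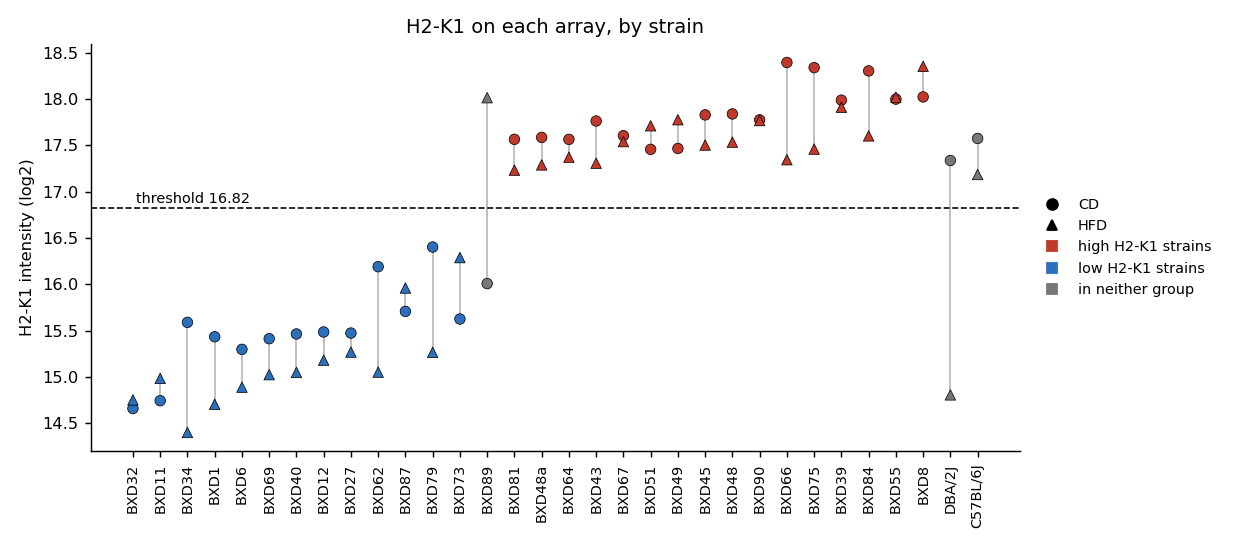
H2-K1 intensity (log2) on the CD array (circle) and the HFD array (triangle) of each strain, with the threshold of 16.82 as a dashed line. High strains lie between 17.23 and 18.39 and low strains between 14.40 and 16.40, while BXD89 and the library pair labelled DBA/2J straddle the line.

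Some libraries go against their labels or each other. BXD89 read H2-K1 at 16.01 under CD and 18.01 under HFD, and Btnl6 at 7.0 under CD and 11.63 under HFD. The array labelled DBA/2J CD read H2-K1 at 17.34 and Btnl6 at 10.81, and that labelled DBA/2J HFD read them at 14.81 and 5.94. Both C57BL/6J arrays lay on the high side, at 17.57 under CD and 17.19 under HFD. None of these 6 arrays entered the groups. Within the groups, the BXD87 arrays differed at Glo1 (12.87 under CD, 14.72 under HFD). The calls without BXD87, BXD89 and BXD90 numbered 26, of which 25 were shared with the calls over all 29 strains.

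The genes that differed between the groups lay almost all close to H2-K1. Strain means (the average of the CD and HFD array) were compared with limma over 19503 genes, and p-values were adjusted by the Benjamini-Hochberg method. H2-K1 was left out of the counts. Of 19502 genes, 26 (0.133%) passed an adjusted p of 0.05, 11 of them higher (0.0564%) and 15 lower (0.0769%) in the high H2-K1 strains. Chromosome 17 held 23 of them (2.39% of its 963 genes), of which 8 were higher (0.831%) and 15 lower (1.56%), and the other chromosomes held 3 (0.0162% of 18536 genes, all higher). At an unadjusted p under 0.05 there were 895 genes (4.59%), 129 on chromosome 17 (13.4%) and 766 elsewhere (4.13%).

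The called genes of chromosome 17 lay between 3.60 Mb below and 2.95 Mb above H2-K1 in the RefSeq annotation (GRCm38.p6), a span that holds 220 measured genes. Distances run from gene midpoint to gene midpoint. Within 4 Mb of H2-K1, 23 of 266 genes passed (8.65%). From 2 to 3 Mb above H2-K1, where the H2-T class I genes lie, 8 of 34 genes passed, and from 1 to 2 Mb above it 6 of 58 did. None of the 40 genes from 3 to 4 Mb above it passed, nor any of the 354 farther on or of the 343 more than 4 Mb below it. This limit depends on the strains and the fit. Abca3, a lipid transporter gene 9.62 Mb below H2-K1, differed by -0.96 ± 0.234 (SE, adjusted p = 0.135 by limma), and with breeding round as a covariate it passed, at -1.21 (adjusted p = 0.0482 by limma). Dnase1l2, a DNase gene 9.56 Mb below it, differed by 1.25 ± 0.284 (SE, adjusted p = 0.0681 by limma). Both passed among the later strains alone, with strain as a block over single arrays, and without any 1 of BXD11, BXD27, BXD39, BXD40 or BXD64. The median absolute difference was 0.11 within 4 Mb and 0.07 over all genes, on the log2 scale.

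**Figure D2:**
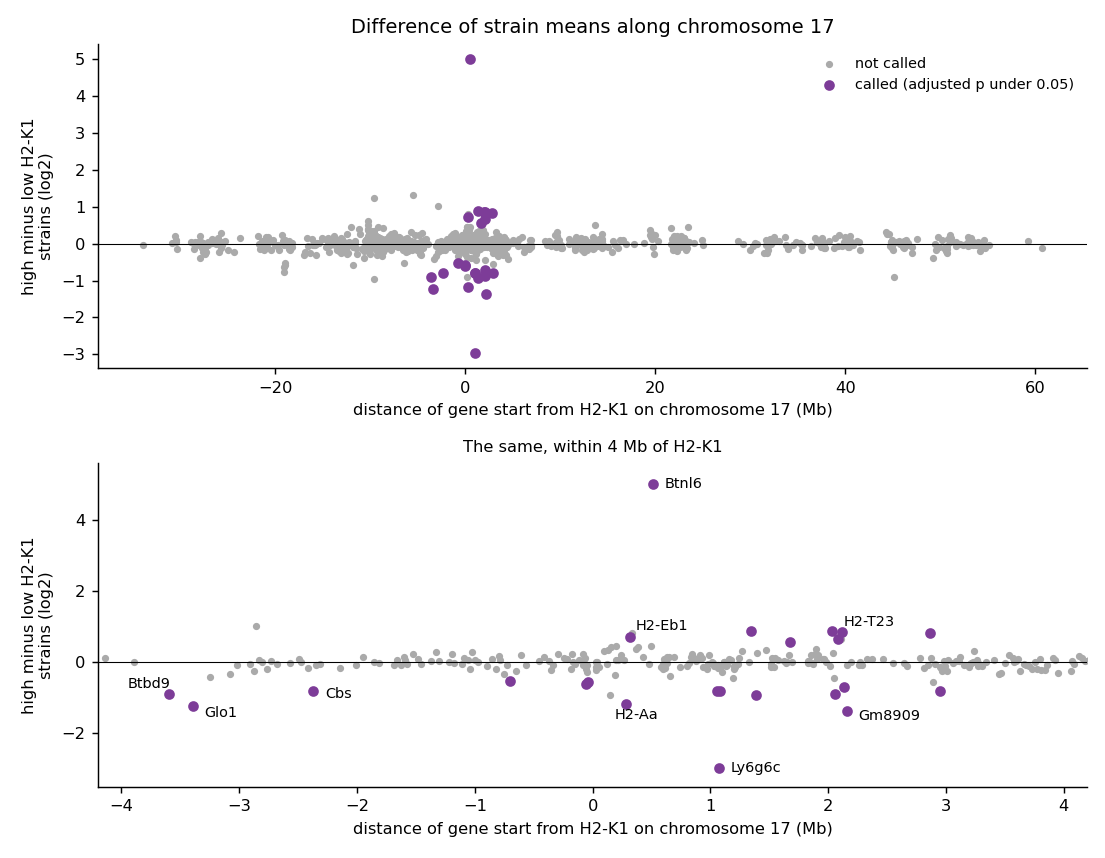
Difference of strain means, high minus low H2-K1 strains (log2), against the distance of each gene from H2-K1 (Mb), for the 963 other genes of chromosome 17 and, in the lower panel, those within 4 Mb. Distances are between gene midpoints, although the axis label names the gene start. The 23 called genes (purple) lie between 3.60 Mb below and 2.95 Mb above H2-K1, with Btnl6 at 5.02 and Ly6g6c at -2.97.

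Breeding round went with the groups. BXD strains numbered up to 42 come from an early set and those above it from later crosses, and 14 of the 16 high strains were later ones against 5 of the 13 low strains. With the round as a covariate, 22 genes passed (0.113%, 17 on chromosome 17), 18 of them shared with the 26, and Btbd9, Cbs, Glo1, H2-Eb1, Rnf39, Trim15, Wdr46 and Zfp955b no longer passed. Among the later strains alone 18 genes passed and among the early strains alone 5, of which 13 and 4 were shared with the 26.

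Btnl6 (Entrez 624681) was the gene that separated the groups most. It is a butyrophilin-like gene 0.515 Mb above H2-K1, and its protein is known to pair with Btnl1 on mouse gut epithelium. High strains read it from 11.04 to 13.49 under CD (median 12.60) and from 11.63 to 13.07 under HFD (median 12.47). Low strains read it from 6.16 to 8.48 under CD (median 7.36) and from 5.47 to 8.78 under HFD (median 7.48). The groups did not overlap under either diet. In bulk colon, fewer cells of a type and less RNA per cell cannot be told apart. Btnl6 was read by 1 probeset, and a probe difference between alleles can also move its signal, which was not tested. The strain means were 12.48 ± 0.440 (SD, n = 16) and 7.46 ± 0.663 (SD, n = 13), a difference of 5.02 ± 0.189 (SE, adjusted p = 5.15e-20 by limma). The readings of the low strains lie around the array medians of 6.54 to 6.77, and the table gives no background level, so no fold is given. The difference was 4.88 in the later strains (adjusted p = 7.98e-13 by limma). It was 5.28 in the early ones, only 2 high and 8 low strains (adjusted p = 3.31e-05 by limma). Strain means did not overlap between the groups for 3 of 19502 genes (0.0154%), Btnl6, Ly6g6c and Clic1.

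The remaining butyrophilin-like genes did not follow Btnl6 past the test. Of 8 measured members 1 passed, beside 8.65% of all genes within 4 Mb of H2-K1, and the median difference over the list was 0.11. Btnl1, its partner, averaged 10.26 ± 0.351 (SD, n = 16) in the high and 9.83 ± 0.258 (SD, n = 13) in the low strains, a difference of 0.43 ± 0.115 (SE, adjusted p = 0.278 by limma). Btnl4, 0.475 Mb above H2-K1, differed by -0.04 ± 0.141 (SE), and Btnl2 by 0.36 ± 0.115 (SE, adjusted p = 0.659 by limma). None of the 21 measured markers of T cells and innate lymphocytes passed, and their median difference was 0.06. Those with the smallest p were Klrb1c, the NK1.1 antigen of natural killer cells, at 0.32 ± 0.131 (SE), and Cd3d, a chain of the T cell receptor complex, at -0.24 ± 0.141 (SE). Their mean level per array ran from 5.09 to 5.88 in the high and from 5.05 to 5.66 in the low strains, and none of the 21 was above the array median on every array.

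Among the class I heavy chains, 4 of 24 members besides H2-K1 were higher in the high strains, 1 was lower and 19 did not pass, with a median difference of 0.09 against 0.0024 over all genes. Of all genes within 4 Mb of H2-K1, 8.65% passed, and from 2 to 3 Mb above it 8 of 34 did. The higher ones were the nonclassical genes H2-T23, H2-T10, H2-Q2 and H2-Bl, and the lower one was H2-Q4. This list leaves out the predicted genes Gm8909, Gm11127 and Gm7030, which lie among the H2-T genes and were called lower. Class I genes are close copies of each other, and how far a probeset also reads a relative was not tested.

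H2-T23, which encodes Qa-1, the ligand of the inhibitory receptor CD94/NKG2A, had a median of 14.14 under CD in the high strains, with the lowest at 13.65 (BXD51) and the highest in BXD39, and ran from 12.59 to 13.63 (median 13.31) in the low strains, without overlap. Under HFD the ranges were 13.16 to 15.52 (median 13.61) and 12.50 to 13.48 (median 13.08), and they overlapped. The strain means differed by 0.87 ± 0.124 (SE, adjusted p = 0.000105 by limma). BXD8 and BXD39, the early strains of the high group, read it highest, at 15.52 and 14.45 under HFD.

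H2-T10, a relative in the same cluster, ran under CD from 12.11 to 13.06 (median 12.69) in the high and from 11.45 to 12.21 (median 11.83) in the low strains. Its strain means differed by 0.85 ± 0.104 (SE, adjusted p = 5.28e-06 by limma), and BXD69 alone among the low strains lay nearer the mean of the high group. H2-Q2 differed by 0.88 ± 0.149 (SE, adjusted p = 0.00207 by limma), by 1.17 under CD and by 0.60 under HFD, where it did not pass. H2-Bl, read at 2.15 to 3.96 over all strain means and so far below the array medians of 6.54 to 6.77, differed by 0.66 ± 0.130 (SE, adjusted p = 0.0131 by limma).

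H2-Q4 went the other way. High strains read it from 5.31 to 8.57 under CD (median 7.93) and from 5.89 to 8.16 under HFD (median 7.26). Low strains read it from 7.30 to 9.41 under CD (median 8.68) and from 7.46 to 8.87 under HFD (median 8.37). The groups overlapped, and the strain means differed by -0.93 ± 0.172 (SE, adjusted p = 0.00639 by limma).

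H2-D1, whose promoter matches that of H2-K1 motif for motif, did not pass. It averaged 11.13 ± 0.343 (SD, n = 16) in the high and 10.82 ± 0.212 (SD, n = 13) in the low strains, a difference of 0.31 ± 0.109 (SE, adjusted p = 0.854 by limma). The genes that load or accompany class I molecules did not pass either. This held for all 5 peptide loading genes inside the MHC, of which Tap1, a subunit of the peptide transporter, came nearest at 0.46 ± 0.184 (SE, adjusted p = 0.999 by limma), and for all 12 partners elsewhere in the genome. B2m, the light chain of class I molecules, read 18.39 ± 0.423 (SD, n = 16) in the high and 18.34 ± 0.335 (SD, n = 13) in the low strains.

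Of 10 measured class II genes, 1 was higher, 1 lower and 8 did not pass, and the median difference was 0.26. Of all genes within 4 Mb of H2-K1, 8.65% passed. At an unadjusted p under 0.05 there were 7 of the 10, beside 24.1% of the genes within 4 Mb. H2-DMb2, 0.149 Mb above H2-K1, differed by -0.91 ± 0.203 (SE) and just missed the threshold (adjusted p = 0.052 by limma). It passed under median centring and under quantile normalization. H2-Aa, the α chain of the I-A molecule, was lower in the high strains. Under CD it ran from 11.46 to 15.68 (median 12.63) in the high strains and from 12.32 to 15.33 (median 14.46) in the low strains. Under HFD it ran from 12.27 to 15.48 (median 13.58) and from 13.60 to 15.48 (median 14.57). The groups overlapped widely, and the strain means differed by -1.18 ± 0.237 (SE, adjusted p = 0.0169 by limma). The call was lost when variances followed a trend with the mean.

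H2-Eb1, the β chain of the I-E molecule, 0.313 Mb above H2-K1, was higher in the high strains, at 10.21 ± 0.474 (SD, n = 16) against 9.5 ± 0.348 (SD, n = 13). The difference was 0.71 ± 0.149 (SE, adjusted p = 0.0251 by limma). With breeding round as a covariate it was 0.79 and missed the threshold, and it also missed it without any 1 of the strains BXD6, BXD27, BXD32, BXD43, BXD62 or BXD69. H2-Ab1, the β chain that pairs with H2-Aa, read 8.09 ± 0.699 (SD, n = 16) and 8.03 ± 0.388 (SD, n = 13), a difference of 0.06 ± 0.199 (SE). Ciita, the master activator of class II transcription, which lies on chromosome 16, differed by -0.08 ± 0.137 (SE). The macrophage and dendritic cell markers, from cells known to express class II, had 0 of 16 members past the test, with mean levels per array of 6.88 to 7.87 in the high and 6.81 to 7.57 in the low strains.

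**Figure D3:**
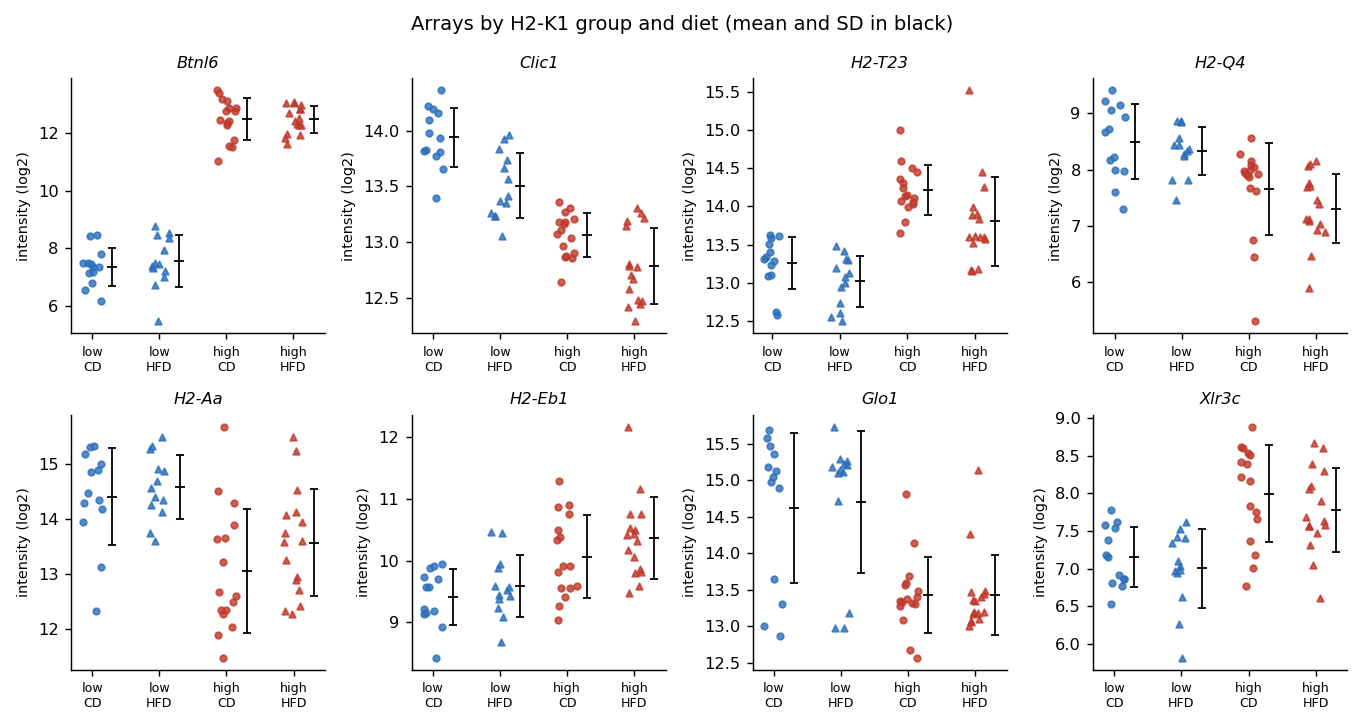
Intensity (log2) of 8 genes on every array by H2-K1 group and diet (circles CD, triangles HFD), with the mean and SD in black, for 13 low and 16 high strains. Btnl6 separates the groups under both diets, whereas H2-Aa, H2-Eb1 and H2-Q4 overlap.

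In the class III region 3 of 41 measured genes were lower in the high strains and none was higher, a share near the 8.65% called among all genes within 4 Mb of H2-K1. Ly6g6c and Ly6g6e, small Ly6-type surface proteins, and Clic1, an intracellular chloride channel protein, lie close together 1.06 to 1.08 Mb above H2-K1. Ly6g6d, which was not called, lies between Ly6g6c and Ly6g6e. Clic1 ran under CD from 12.64 to 13.36 (median 13.09) in the high and from 13.40 to 14.37 (median 13.94) in the low strains, without overlap. Under HFD the ranges 12.29 to 13.31 (median 12.74) and 13.05 to 13.96 (median 13.42) overlapped. Strain means differed by -0.80 ± 0.0882 (SE, adjusted p = 5.84e-07 by limma).

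Ly6g6c (Entrez 68468) had the largest difference after Btnl6. Under CD it ran from 6.33 to 8.34 (median 7.51) in the high and from 9.88 to 12.76 (median 11.75) in the low strains. Under HFD it ran from 6.24 to 7.74 (median 7.14) and from 7.44 to 12.25 (median 8.59). The groups were apart under CD and overlapped under HFD. Strain means were 7.30 ± 0.415 (SD, n = 16) and 10.27 ± 0.965 (SD, n = 13), a difference of -2.97 ± 0.242 (SE, adjusted p = 3.19e-10 by limma). Ly6g6e differed by -0.81 ± 0.107 (SE, adjusted p = 2.59e-05 by limma). Its averages of 5.53 in the high and 6.34 in the low strains lay below the array medians of 6.54 to 6.77. Ly6g6d, the neighbor of Ly6g6c and Ly6g6e, 1.08 Mb above H2-K1, read 9.86 ± 0.340 (SD, n = 16) and 10.01 ± 0.288 (SD, n = 13), and its difference of -0.15 ± 0.116 (SE) did not pass. The complement gene C4b differed by -0.14 ± 0.121 (SE).

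Below H2-K1, 4 of 23 genes of a list from the flank were lower in the high strains, and none was higher. This list was written with earlier results of these data known. Over all measured genes, 3 of 23 passed from 4 to 2 Mb below H2-K1. From 2 to 1 Mb below it 0 of 23 passed, and within 1 Mb below it 3 of 35. Glo1, glyoxalase 1, which detoxifies methylglyoxal, and Btbd9, a BTB domain gene, lie 3.40 and 3.60 Mb below it. A duplication that takes in Glo1 and part of Btbd9 is known from several inbred strains, DBA/2J among them. Glo1 ran from 12.86 to 14.97 in the strain means of the high and from 12.99 to 15.60 in those of the low group, a difference of -1.23 ± 0.251 (SE, adjusted p = 0.0195 by limma). Without BXD32 it just missed the threshold (adjusted p = 0.051 by limma).

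The levels of Glo1 cut across the groups. The low strains BXD12, BXD27 and BXD79 read it at 13.18, 12.97 and 12.98 under HFD, whereas the other low strains apart from BXD87 read it at 14.90 or more on both arrays. The high strain BXD39 read it at 14.81 and 15.14, and BXD55, also high, lay between at 14.14 and 14.26. Btbd9 put the same 3 low strains nearer the mean of the high group and BXD39 nearer that of the low group, with a difference between the groups of -0.91 ± 0.165 (SE, adjusted p = 0.00529 by limma). Dnah8 and Glp1r, 3.25 and 3.08 Mb below H2-K1, differed by -0.41 ± 0.135 (SE) and -0.32 ± 0.091 (SE) and did not pass. Whether the duplication takes in these genes too was not examined.

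Nearer H2-K1, Wdr46, a nucleolar protein gene, differed by -0.61 and Vps52, a subunit of a Golgi tethering complex, by -0.57 (adjusted p = 0.00417 and 0.0122 by limma). The zinc finger gene Zfp955b, 0.700 Mb below H2-K1, differed by -0.53, and Cbs, cystathionine β-synthase, 2.37 Mb below it, by -0.80. Above H2-K1, at 1.67 Mb and so between H2-Q4 and H2-T23, the high strains read Gtf2h4, a subunit of the transcription factor TFIIH, higher by 0.57. Trim15, a tripartite motif gene at 2.87 Mb, was higher by 0.83, while Rnf39, a ring finger gene at 2.95 Mb, differed by -0.80. The predicted genes Gm8909, Gm11127 and Gm7030, which lie among the H2-T genes, were lower in the high strains, with differences of -1.36, -0.89 and -0.71. They were not in the list of class I heavy chains, and how far their probesets also read class I genes was not tested. BXD8, an early strain, was the high strain that read Gm8909 nearer the low group, at 10.05 under CD and 10.11 under HFD.

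Most strains did not lie on the side of their group at every called gene. For each of the 23 called genes of chromosome 17, the strain mean was placed nearer the mean of the high or of the low group. High strains lay on their own side at 18 to 23 genes (median 20) and low strains at 16 to 23 (median 20), since the genes were called for their difference between these very groups. BXD66 was on the high side and BXD62 on the low side at all 23. BXD69 had the fewest on its own side, with 7 genes nearer the high group, among them H2-T10, Cbs, Ly6g6e and H2-Q4. BXD89 lay nearer the high group at 12 genes and nearer the low group at 11. Its 2 arrays disagreed about the side at 19 of 23 genes, against 2 to 9 in the 29 grouped strains and 14 for DBA/2J. In the grouped strains this disagreement between arrays was thus of the same order as the 0 to 7 genes on the other side, and no genotype was available to tell a crossover from the spread of the arrays. Glo1 of BXD89, at 12.96 and 13.51, was on the high side on both arrays.

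**Figure D4:**
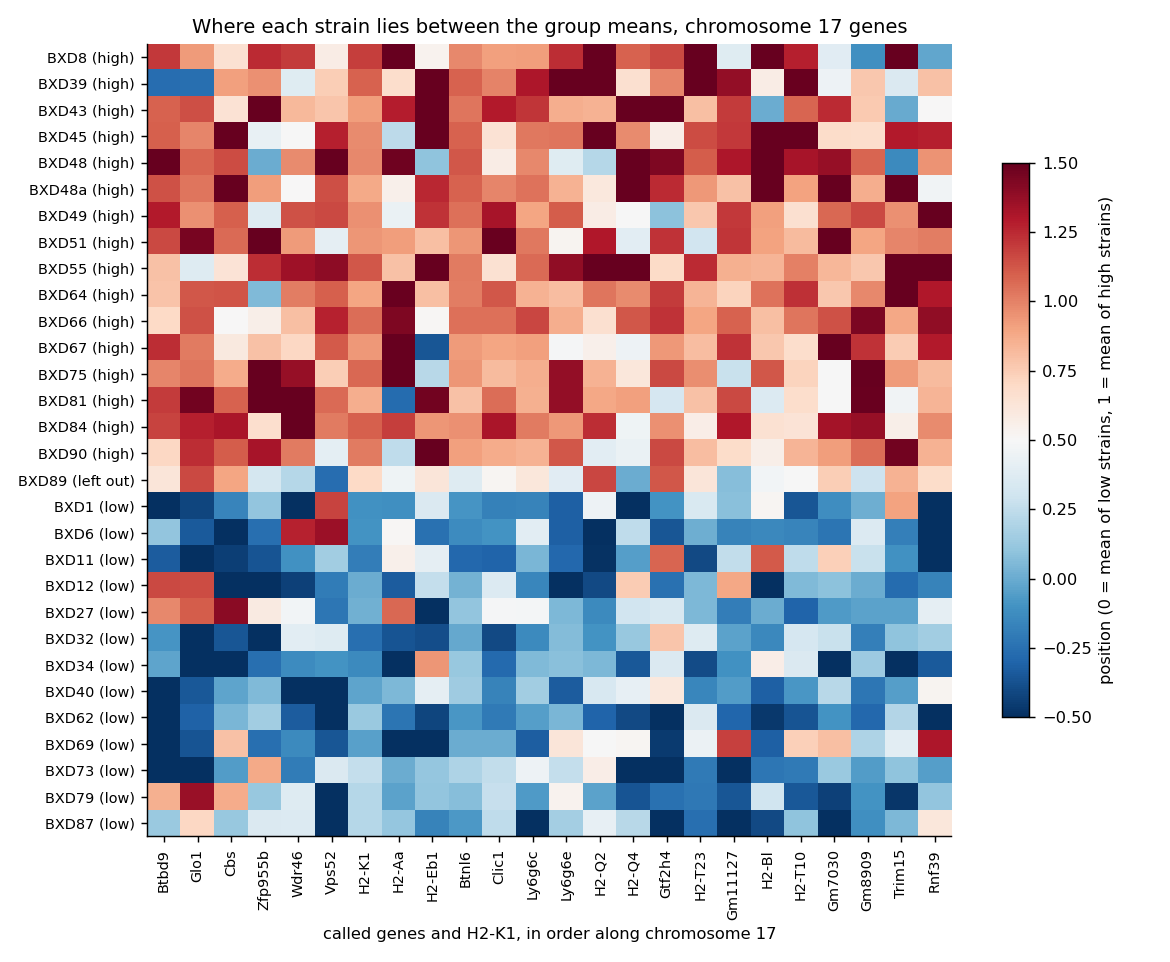
Position of the strain mean between the mean of the low group (0) and of the high group (1), for 23 called genes and H2-K1 in order along chromosome 17, with colors saturating at -0.5 and 1.5. Blocks of the other color stand out at Btbd9 and Glo1 in BXD12, BXD27, BXD79 and BXD39, and BXD89, whose arrays disagree, is pale.

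Outside chromosome 17 the called genes were Xlr3a, Xlr3b and Xlr3c, X-linked lymphocyte-regulated genes that are near-identical copies of each other, so their signals may not be separate and count as 1 observation. Xlr3c ran under CD from 6.76 to 8.89 (median 8.19) in the high and from 6.53 to 7.78 (median 7.15) in the low strains, and the groups overlapped. The differences were 0.81 for Xlr3a, 0.67 for Xlr3b and 0.81 for Xlr3c (adjusted p = 0.0252, 0.0321 and 0.0186 by limma). None of the 3 passed on CD or HFD arrays alone, nor without BXD39, BXD48a, BXD49 and BXD69. With breeding round as a covariate all 3 passed and their relative Xlr4b joined them, at 0.69 (adjusted p = 0.048 by limma).

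None of the remaining lists had a member past the test, which carries little weight where 0.0162% of the genes outside chromosome 17 were called. They held 9 B and plasma cell markers, 29 interferon-stimulated genes, 19 acute phase and antimicrobial genes, 18 colonocyte, 10 goblet cell and 9 enteroendocrine markers, 30 cell cycle, 36 xenobiotic metabolism and 15 heat shock genes, as well as the small intestine and Paneth (20), stem cell (7) and stroma (17) lists. Oas1a, an antiviral enzyme induced by interferon, had the smallest p of its list and differed by 0.49 ± 0.180 (SE, adjusted p = 0.939 by limma). The median difference of the interferon-stimulated genes was 0.14, and their mean level per array ran from 6.46 to 8.83 in the high and from 6.45 to 7.92 in the low strains. Of the acute phase genes Retnlb, a goblet cell antimicrobial protein, differed by 1.66 ± 0.655 (SE, adjusted p = 0.999 by limma). As a check of the tissue, 17 of 18 colonocyte markers and all 10 goblet cell markers lay above the array median on every one of the 58 arrays. Defa24, a Paneth cell defensin of the small intestine, was over 15 on 3 of 32 high arrays (BXD48a CD, BXD39 HFD and BXD49 HFD) and on 1 of 26 low arrays (BXD69 HFD). Without these 4 strains 21 genes passed, 19 of them shared with the 26.

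The diets were then taken apart. On CD arrays alone 15 genes passed (0.0769%), all on chromosome 17, and on HFD arrays alone 11 (0.0564%), again all there. Btnl6 differed by 5.12 ± 0.235 (SE) under CD and 4.92 ± 0.238 (SE) under HFD. Ly6g6c differed by -4.15 ± 0.255 (SE) under CD and by -1.79 ± 0.298 (SE) under HFD. H2-Aa, H2-Eb1 and the Xlr3 genes passed under neither diet alone.

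Whether the groups responded differently to the diet was tested on the HFD minus CD difference of each strain. Of 19502 genes 1 passed (0.00513%), Ly6g6c, and 1238 had an unadjusted p under 0.05 (6.35%). In the low strains Ly6g6c fell by 2.77 on the log2 scale (SE 0.237, adjusted p = 2.19e-06 by limma), and HFD was below CD in 13 of 13 strains, with single differences from -4.65 to -0.05 (median -2.86). In the high strains the change was -0.41 ± 0.126 (SE, adjusted p = 0.145 by limma), with HFD below CD in 12 of 16 strains and differences from -1.22 to 0.55 (median -0.55). Under CD the high strains already read Ly6g6c at 6.33 to 8.34 (median 7.51), near the array medians of 6.54 to 6.77. How far this level limits a fall was not tested. The responses differed by 2.36 ± 0.273 (SE, adjusted p = 5.7e-06 by limma).

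BXD87 was the low strain that stood apart. It read Ly6g6c at 12.30 under CD and 12.25 under HFD, while the other low strains read it at 7.44 to 10.02 under HFD. Without BXD87, BXD89 and BXD90 the difference between the responses was 2.59 ± 0.223 (SE, adjusted p = 4.29e-09 by limma). Among the early strains alone, only 2 high and 8 low ones, it was 3.15 (adjusted p = 0.00568 by limma). Among the later strains alone it was 2.04 and did not pass (adjusted p = 0.242 by limma), and with BXD87 left out of those it was 2.66 and passed (adjusted p = 0.000345 by limma).

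**Figure D5:**
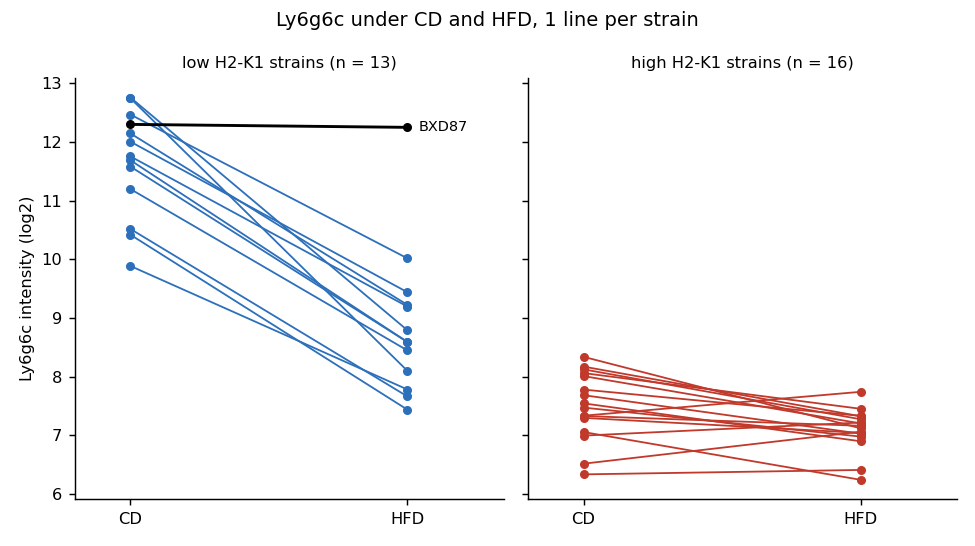
Ly6g6c intensity (log2) under CD and HFD, with 1 line per strain, in the 13 low and the 16 high H2-K1 strains. Lines of the low strains run downward from 9.88 to 12.76 under CD, except BXD87 (black, 12.30 to 12.25), and lines of the high strains stay between 6.24 and 8.34.

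The neighbors of Ly6g6c did not show this difference. The responses of the groups differed by 0.15 ± 0.144 (SE) for Clic1 and by -0.01 for Ly6g6e, and by -0.20 ± 0.285 (SE) for Btnl6. Among genes that missed the threshold, the smallest p belonged to Cuedc2, a CUE domain gene, whose response was -0.16 ± 0.108 (SE) in the high and 0.69 ± 0.145 (SE) in the low strains (difference -0.85, adjusted p = 0.281 by limma). Pyy, the gut hormone peptide YY, changed by 0.33 ± 0.120 (SE) in the high strains, with HFD above CD in 12 of 16, and rose by 1.21 ± 0.178 (SE, adjusted p = 0.0013 by limma) in the low strains, with HFD above CD in 13 of 13. The difference of its responses, -0.88 ± 0.216 (SE), did not pass (adjusted p = 0.571 by limma). The same holds for Hc, complement C5, at -0.76 ± 0.192 (SE), and for the olfactory receptor genes Olfr568 and Olfr670, at 0.92 ± 0.204 (SE) and 1.02 ± 0.233 (SE). These genes read below the array medians of 6.54 to 6.77. In the high and low strains Hc averaged 4.86 and 5.01, Olfr568 4.37 and 4.35, and Olfr670 5.41 and 5.54.

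Within each group HFD was compared with CD by the same test. In the high strains 165 genes passed (0.846%, 46 or 0.236% rose and 119 or 0.61% fell), and in the low strains 298 (1.53%, 149 or 0.764% rose and as many fell). Of 36 xenobiotic metabolism genes 12 fell and none rose in the high strains, and 10 fell and 1 rose in the low strains. Ces2a, a carboxylesterase, fell by 1.65 in the high and by 1.98 in the low strains (adjusted p = 2.54e-05 and 4.95e-05 by limma), and its responses differed by 0.33 ± 0.294 (SE, adjusted p = 0.902 by limma). Cyp2c55, a cytochrome P450, fell by 1.15 and by 1.16. Of 19 acute phase and antimicrobial genes 2 rose and 1 fell in the high, and 4 rose and 1 fell in the low strains. Saa1, serum amyloid A, rose by 1.24 and by 1.73, and its responses differed by -0.49 ± 0.439 (SE). Of 30 cell cycle genes 4 rose in the high and 3 in the low strains, and of 15 heat shock genes 1 fell in the high and 3 in the low strains. No class I or class II gene passed the diet test in either group. The counts of the groups were not compared by a test, since they differ in the number of strains.

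Over all 30 BXD strains, the strain means that ran most like H2-K1 were those of Btnl6 (Pearson r = 0.96), H2-T23 (0.80), H2-T10 (0.79), H2-Q2 (0.77) and Trim15 (0.67). Those that ran most against it were Clic1 (r = -0.89), Ly6g6c (-0.88), Ly6g6e (-0.85), Gm8909 (-0.77) and Cbs (-0.72). All 10 lie on chromosome 17. The strains fall into separate levels of H2-K1, so these values restate the difference between the groups, and they are given as a description.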

How the data were processed

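Colon RNA of 32 inbred strains was measured on 64 Clariom S arrays, 1 per strain and diet. The authors' table gives log2 intensities from Array Power Tools 2.11.3 (gc-sst-rma-sketch) as deposited, and no further log or normalization was applied. The methods describe ignoring probes that overlap polymorphisms and taking the median over probesets, and it is not stated whether the deposited values include these steps. Probe differences between alleles can therefore move a signal, which was not tested. Of 22199 probesets, 19570 map to 1 gene symbol and 2629 unnamed ones (none maps to several) were dropped, and the median was taken for 55 genes with several probesets, which left 19503 genes. Chromosomes and distances came from RefSeq (GRCm38.p6).

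BXD strains were grouped by the H2-K1 threshold, 1 value per strain was tested with limma 3.58.1 (lmFit, eBayes) in R 4.3.3, and p-values were adjusted by Benjamini-Hochberg over all genes (threshold 0.05). BXD48 and BXD48a share a strain number and each entered the high group as its own strain. How closely they are related was not examined. Without BXD48a 25 genes passed, all of them among the 26, and Xlr3b was lost. The response was tested on the HFD minus CD difference within each strain. Members, lists (21) and tests were chosen with earlier results of these data known, and the lists are described by counts and medians only. Named genes were the 15 largest differences in each direction among those called, the 10 largest outside chromosome 17, the called members of the MHC and butyrophilin lists (the member with the smallest p where none was called), the 2 members with the smallest p of each other list, the 5 smallest p of the response in each direction and the 5 genes most correlated with H2-K1 in each direction. Others (such as Abca3, Dnase1l2, H2-D1, Btnl1, Btnl2, Btnl4, H2-Ab1, H2-DMb2, Ly6g6d, C4b, B2m, Ciita, Dnah8, Glp1r, Xlr4b, Ces2a, Cyp2c55, Saa1 and Defa24) were picked with their values in view. The fit was tested on simulated data. The number of strains, 16 and 13, limits the precision.

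The 2 arrays of a strain come from 1 inbred strain and were treated as a pair. In 21 of 29 strains the CD and HFD arrays deviated together from their diet means (correlation over 0.1), with a median correlation of 0.21 within and -0.01 across strains. Alternatives were other centring and normalization, the mean over probesets, a filter on low genes, a variance trend, breeding round as a covariate, several strains left out, each diet alone, single arrays with strain as a replicate block and each strain left out in turn. Analyses within a breeding round were added after seeing the data.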

Additional observations from a re-analysis of the deposited data

Results flagged for a closer look

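The HFD minus CD response of Ly6g6c differed between the H2-K1 groups by 2.36 on the log2 scale (high minus low), by limma's test of the difference itself (SE 0.273, adjusted p = 5.7e-06), with HFD below CD in 13 of 13 low and 12 of 16 high strains. The adjusted p was between 1.54e-09 and 0.242 over its alternatives, the latter among the later strains alone. The level of Ly6g6c under CD moved with the response, at 9.88 to 12.76 in the low and 6.33 to 8.34 in the high strains, and its part in the difference was not tested.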

How the results depend on the processing

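Over all genes the count of 26 became 15 on CD arrays alone, 11 on HFD arrays alone, 5 in the early strains and 12 in the later strains without BXD87, and on chromosome 17 the count of 23 became 15, 11, 5 and 11. Outside chromosome 17 the 3 genes became 0 on CD arrays, 0 on HFD arrays, 5 with breeding round as a covariate, 0 in the early strains, 1 in the later strains with or without BXD87, 0 without BXD39, BXD48a, BXD49 and BXD69, and 1 without BXD49 and BXD81. Leaving out each strain in turn gave 22 to 30 genes over all, 20 to 27 on chromosome 17 and 1 to 4 elsewhere (1 without BXD8, BXD43, BXD69 or BXD73), and 1 for the response each time. The response count of 1 became 0 in the later strains alone and stayed at 1 in the other alternatives. The fits within a breeding round hold fewer strains, and the cause of the other changes was not tested.

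With strain as a replicate block over single arrays (consensus correlation 0.14), the count over all genes was 36, which holds the 26, and outside chromosome 17 it was 5. For the response, single arrays with no replicate block gave 1 gene, Ly6g6c, at 2.36 (adjusted p = 0.00567 by limma). Median centring, quantile normalization and the mean over probesets kept all 26 calls, the variance trend lost Glo1 and H2-Aa (24 left), and no called gene changed sign under any alternative. Of the 27 called values (26 levels and the response of Ly6g6c), 22 passed whichever strain was left out, and Glo1, H2-Eb1, Xlr3a, Xlr3b and Zfp955b did not. Weak genes such as H2-Bl and Ly6g6e were below the filter that kept the upper 60% of genes.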
